A study of Homo sapiens with 6 samples.

Results

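The TRAF adaptor and inhibitor of apoptosis genes were examined as a set of 10 genes, chosen by symbol from the 19470 genes of the count table: TRAF1 to TRAF6, the inhibitor of apoptosis (IAP) genes BIRC2, BIRC3 and XIAP, and TNFAIP3, which encodes A20. All 10 were found in the table, and all 10 passed the filter on low counts, which kept 13066 genes. The libraries came from HCCC9810, an established human cholangiocarcinoma (CCA) cell line of wild type genotype. Cells received either 20 μM isolinderalactone (ILL), a sesquiterpenoid lactone from Lindera plants, or the DMSO vehicle, and RNA of both groups was taken at 24 h, with 3 libraries per group. Neither the labels nor the methods say whether the libraries of a group came from separate cultures, so p-values measure the spread between these libraries, which may be technical.

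TRAF proteins are cytoplasmic adaptors that bind the tails of TNF receptor family members and, in the case of TRAF6, take signals from IL-1 and Toll-like receptors. Most of them carry a RING domain and work with ubiquitin ligases, and TRAF2 brings the ligases cIAP1 and cIAP2, the products of BIRC2 and BIRC3, to receptor complexes. In resting cells a complex of TRAF2, TRAF3 and these ligases keeps the kinase NIK at a low level and so holds back noncanonical NF-κB signaling. XIAP binds and blocks caspases, and A20 is a ubiquitin-editing enzyme that ends NF-κB signals. TRAF1, BIRC3 and TNFAIP3 are themselves known as NF-κB target genes.

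Total counts lay between 34282764 and 37758569 per library, and 14558 to 14787 genes had at least 1 count. No library repeated another of its group, since a chi-square test of their counts over genes gave 5.09 to 11.5 per degree of freedom, and each was counted as 1 replicate. Of 8 cholangiocyte markers, 7 were tested and expressed. The 8 markers summed to 9050 to 9292 CPM in controls and 9531 to 10120 CPM with ILL. This sum hides changes in both directions. Of the 7 tested, 3 were higher and 4 lower at an adjusted p-value under 0.05 in edgeR's quasi-likelihood test. The shares over all genes tested were 36.2% and 36.9%. CDH1 rose 4.19-fold and KRT18 fell to 0.566 of control. CD68, a lysosomal protein often used as a macrophage marker, made up most of the list of 10 blood and immune cell markers, which summed to 38.1 to 42.5 CPM in controls and 114.1 to 120.9 CPM with ILL, and to 1.51 to 2.39 and 3.26 to 3.89 CPM without it. The 8 fibroblast and endothelium markers summed to 13.1 to 15.6 CPM in controls and 18.4 to 20.3 CPM with ILL. The part of these marker genes in the results was not tested.

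With ILL, 8 of the 10 genes were higher and 1 was lower at an adjusted p-value under 0.05 in edgeR's quasi-likelihood test, against 73.1% of all genes tested in either direction, and TRAF5 was the gene that did not pass. Over all genes tested, 36.2% were called higher and 36.9% lower by the same test, so calls by themselves were common in these libraries. With a fold change above 2 also required, TRAF1, BIRC3 and TNFAIP3 were called higher, against 12.5% of all genes, and none of the 10 was called lower, against 11.4%. In CPM scaled by TMM normalization, the ILL and control libraries did not overlap for any of the 10 genes. ILL lay above control in 9 genes and below it in 1. Among all genes tested, 37.5% had ILL above control without overlap, 38% had it below, and 75.4% were on either side. The median log2 fold change of the 10 genes was 0.58, beside -0.0012 for all genes tested. Over all 13066 genes tested, 1635 were higher and 1485 lower past 2-fold in the edgeR fit. With limma on log2(FPKM + 1), run without TMM on 10571 genes with a mean FPKM of at least 1, the split was 668 to 923.

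**Figure D1:**
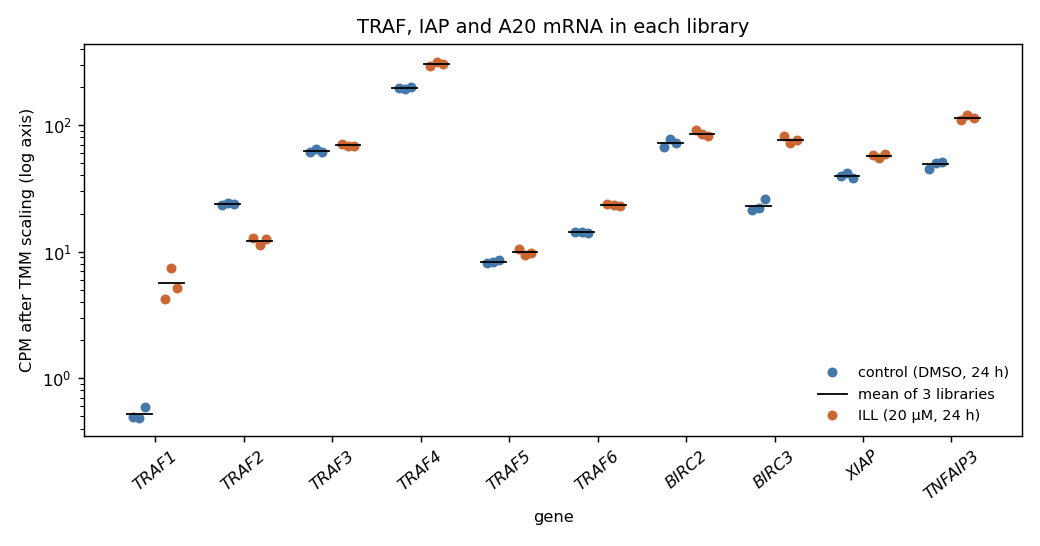
Normalised read counts of the 10 genes (CPM with TMM-scaled library size, log axis). Points are the 3 control (blue) and 3 ILL (orange) libraries, and black bars are group means. The ILL points lie above the control points for every gene but TRAF2, whose 3 ILL libraries lie between 11.2 and 12.7 CPM and below the control libraries.

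**Figure D2:**
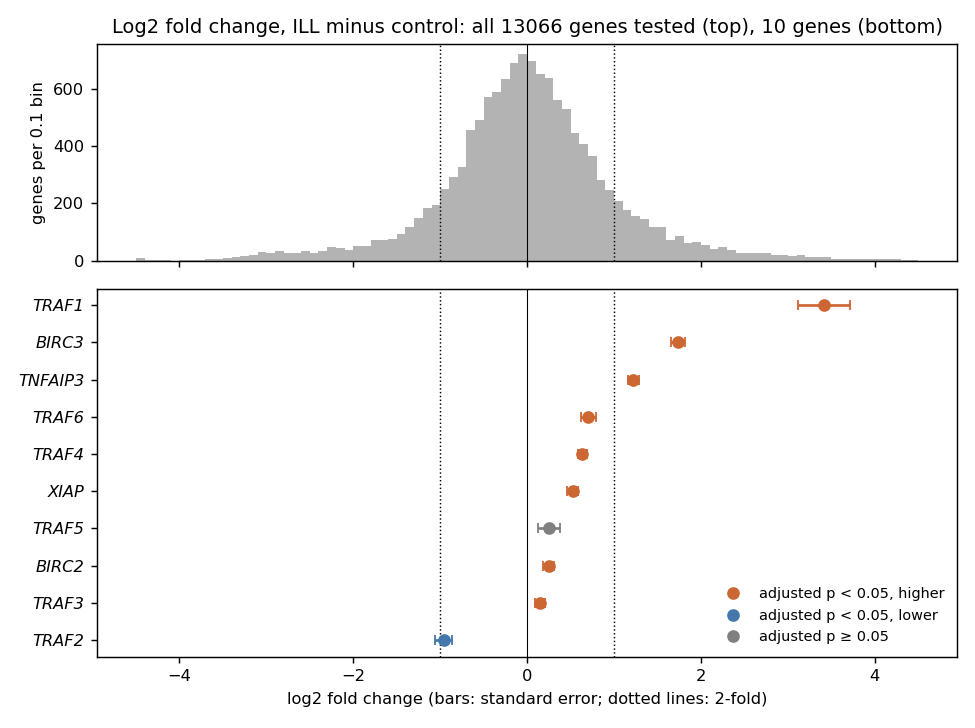
Distribution of log2 fold changes (ILL minus control) over the 13066 genes tested, above, with values beyond the axis range drawn in the outermost bins, and the 10 genes with their standard errors, below. TRAF1, BIRC3 and TNFAIP3 lie beyond the dotted line at 2-fold, and TRAF2 lies beside the line on the other side.

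TRAF1 and TRAF2, which form mixed trimers that carry the cIAP ligases, moved in opposite directions. TRAF1, an adaptor without a RING domain that lies on chromosome 9 of GRCh38 from 120902393 to 120929173, had 19, 17 and 21 counts in control replicates 1 to 3 and 147, 256 and 182 counts in ILL replicates 1 to 3. The gene was close to silent in every control library, and the ILL libraries were both higher and more spread out, with a coefficient of variation of 29.5% against 11.9%. TRAF1 was 10.7-fold higher with ILL, a log2 fold change of 3.42 ± 0.30 (SE, edgeR adjusted p = 2.1e-10), above 99.3% of all genes tested. On the log2(FPKM + 1) scale, which compresses genes of low level, the TRAF1 difference was 0.98. The paper, by contrast, describes TRAF1 mRNA as reduced by ILL in quantitative PCR of HCCC9810 cells. From its RNA-seq, the paper reports that the NF-κB pathway was positively enriched with ILL, and it concludes that ILL suppressed this pathway. The reason for the difference in direction between the TRAF1 counts and the quantitative PCR was not tested. TRAF2 lies on the same chromosome, from 136881912 to 136926607, and had 23.3, 24.0 and 23.7 CPM in controls and 12.7, 11.2 and 12.6 CPM with ILL. It was the only gene of the set with its ILL libraries below its control libraries. TRAF2 fell by 0.96 on the log2 scale (SE 0.10, edgeR adjusted p = 2.2e-09), to 0.514 of the control level, just short of the 2-fold cutoff. That cutoff was passed when libraries were scaled by size only (-1.03) and on log2(FPKM + 0.1). Within each library, the FPKM ratio of TRAF1 to TRAF2 was 0.0158, 0.0152 and 0.0189 in controls and 0.248, 0.50 and 0.312 with ILL (two-sided exact permutation p = 0.1, the smallest that 3 against 3 libraries allow).

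TRAF3, the partner of TRAF2 in the complex that limits NIK, rose only slightly. It lies on chromosome 14 from 102777476 to 102911500 and had 60.9, 64.8 and 61.0 CPM in controls and 70.3, 68.8 and 67.8 CPM with ILL. The groups were close but did not overlap in CPM. In FPKM they overlapped, with 6.19 in control replicate 2 and 6.16 in ILL replicate 3. The log2 fold change was 0.15 ± 0.06 (SE, edgeR adjusted p = 0.029). This small increase lost its call in 8 of 15 alternatives, among them scaling by library size only and leaving out control replicate 1, control replicate 3 or ILL replicate 1. The FPKM ratio of TRAF3 to TRAF2 was 0.826 ± 0.020 (SD, n = 3) in controls and 1.79 ± 0.13 (SD, n = 3) with ILL (exact permutation p = 0.1, the smallest possible). TRAF5, which shares receptors with TRAF2 and lies on chromosome 1 from 211326615 to 211374946, had 8.19, 8.22 and 8.51 CPM in controls and 10.6, 9.41 and 9.67 CPM with ILL. Its log2 fold change of 0.25 had a standard error of 0.13 and missed the threshold (edgeR adjusted p = 0.076).

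TRAF6 and TRAF4 rose by similar amounts from very different levels. TRAF6, the ubiquitin ligase of IL-1 and Toll-like receptor signaling on chromosome 11 from 36487027 to 36510272, had 14.3, 14.4 and 14.1 CPM in controls and 23.6, 23.5 and 22.8 CPM with ILL. The 3 libraries of each group lay close together, and the log2 fold change was 0.70 ± 0.09 (SE, edgeR adjusted p = 1.6e-07), or 1.63-fold. TRAF4, an adaptor first cloned from breast carcinoma and found in many epithelia, lies on chromosome 17 from 28743984 to 28750958 and had 195.8, 193.9 and 200.7 CPM in controls. With ILL it had 295.3, 315.9 and 306.1 CPM, all above the control libraries. The log2 fold change of TRAF4 was 0.64 (SE 0.05, edgeR adjusted p = 3e-11), or 1.55-fold. TRAF4 shares exon sequence with 2 antisense genes of GENCODE release 29 that are not rows of the count table, and TNFAIP3 with 1. Since the strand setting of the counting is not given in the sources used here, reads of these antisense genes cannot be told apart from reads of the 2 genes.

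Among the inhibitors of apoptosis, BIRC3 rose far more than its neighbor BIRC2. Both genes lie on chromosome 11, BIRC3 from 102317450 to 102339403 and BIRC2 from 102347211 to 102378670, and they encode the related ubiquitin ligases cIAP2 and cIAP1, so a part of their reads could be shared. BIRC3 had 21.2, 22.0 and 25.8 CPM in controls and 82.4, 71.8 and 75.9 CPM with ILL. The lowest ILL library was thus well above the highest control library, and BIRC3 was 3.33-fold higher (log2 fold change 1.74 ± 0.08 SE, edgeR adjusted p = 5e-16). BIRC2 had 67.5, 77.2 and 72.0 CPM in controls and 91.2, 84.3 and 81.6 CPM with ILL, a narrow gap between the groups. Its log2 fold change was 0.25 ± 0.06 (SE, edgeR adjusted p = 0.0012), and with limma on log2(FPKM + 1) without a filter it no longer passed (adjusted p = 0.062 from limma). The FPKM ratio of BIRC3 to BIRC2 was 0.301, 0.273 and 0.343 in controls and 0.864, 0.814 and 0.890 with ILL (exact permutation p = 0.1, the smallest possible). XIAP, the direct inhibitor of caspases on the X chromosome from 123859724 to 123913979, had 39.7, 41.8 and 38.1 CPM in controls and 58.3, 54.5 and 59.0 CPM with ILL. It rose by 0.52 on the log2 scale (SE 0.07, edgeR adjusted p = 1.5e-07). GENCODE lists 3 XIAP pseudogenes and 1 TRAF6 pseudogene, none of them a row of the count table, and how reads shared with these copies were counted is not given in the sources used here.

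TNFAIP3 lies on chromosome 6 from 137867188 to 137883312 and had 44.6, 50.4 and 51.5 CPM in controls and 108.7, 119.3 and 112.8 CPM with ILL. All ILL libraries were more than 2-fold above the control mean, and the log2 fold change was 1.22 ± 0.06 (SE, edgeR adjusted p = 1.4e-14), or 2.33-fold. Cells of a bulk library are measured together, so a rise in every cell and a larger rise in part of the cells cannot be told apart for this gene or the others.

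Genes were picked here by their change, so matches in their sequences do not test a cause of it. Sequences before transcript starts are shown for BIRC3 and TNFAIP3, which both rose, TRAF3, which rose only slightly, and TRAF1, which rose most. They were taken from RefSeq (GRCh38.p14) as the 250 bases before a transcript start, 5′ to 3′ on the strand of the gene, with matches to the κB consensus in capitals. BIRC3 is shown at chr11:102317234-102317483 (plus strand), TNFAIP3 at chr6:137867009-137867258 (plus strand), TRAF3 at chr14:102777199-102777448 (plus strand) and TRAF1, at the outermost of its 3 starts, at chr9:120929172-120929421 (minus strand).
BIRC3: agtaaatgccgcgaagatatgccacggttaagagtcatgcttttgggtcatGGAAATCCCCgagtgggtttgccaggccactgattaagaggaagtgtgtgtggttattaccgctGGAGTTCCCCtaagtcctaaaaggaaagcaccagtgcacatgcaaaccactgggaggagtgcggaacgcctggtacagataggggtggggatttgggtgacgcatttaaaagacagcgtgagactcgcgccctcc
TNFAIP3: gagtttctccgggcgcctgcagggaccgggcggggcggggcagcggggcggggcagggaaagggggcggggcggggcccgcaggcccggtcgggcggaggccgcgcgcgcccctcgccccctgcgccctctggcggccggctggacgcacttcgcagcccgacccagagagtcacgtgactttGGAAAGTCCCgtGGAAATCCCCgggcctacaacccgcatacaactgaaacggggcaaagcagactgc
TRAF3: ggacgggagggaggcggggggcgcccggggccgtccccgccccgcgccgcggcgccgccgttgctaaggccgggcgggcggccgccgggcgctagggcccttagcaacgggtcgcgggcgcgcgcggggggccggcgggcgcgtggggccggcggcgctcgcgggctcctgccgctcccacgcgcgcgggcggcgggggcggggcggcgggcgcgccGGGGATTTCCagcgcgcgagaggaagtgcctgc
TRAF1: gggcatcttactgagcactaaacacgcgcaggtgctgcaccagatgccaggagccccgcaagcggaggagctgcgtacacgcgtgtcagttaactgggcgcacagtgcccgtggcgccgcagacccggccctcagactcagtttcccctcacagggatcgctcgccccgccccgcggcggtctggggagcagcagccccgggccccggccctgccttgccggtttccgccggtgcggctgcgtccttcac

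All 10 genes matched the RefSeq windows by symbol, with 17 windows in all, since TRAF1, TRAF5 and XIAP have 3 starts each and BIRC2 has 2. The κB consensus, the usual 10-base binding motif of NF-κB, was searched on both strands of the bases from 250 before to 50 after each start. It matched in 5.91% of the 35116 windows of all genes and in 3 of the 17 windows described here. BIRC3 held 2 matches, beginning 199 and 135 bases before the start, and TNFAIP3 held 2, beginning 67 and 55 bases before it. TRAF3 held 1 match 33 bases before its start, and none of the 3 TRAF1 windows held one. The AP-1 motif TGANTCA (7.71% of all windows) was in none of the windows of these genes. The element TGATGNAA, bound by ATF4 and CHOP (3.62% of all windows), was in 1 of them, just inside the transcript of the middle TRAF1 start. The GC box GGGCGG (45% of all windows) was found before or after at least 1 start of every gene but BIRC3. These are letter matches in short windows and say nothing about binding in HCCC9810 cells.

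The make-up of each family was compared on the FPKM scale, which divides counts by gene length and library total. In control cells TRAF4 was the most abundant of the 10 genes at 49.2 FPKM, followed by BIRC2 at 17.5 and TNFAIP3 at 8.41 FPKM. TRAF2 at 7.19, TRAF3 at 5.94, BIRC3 at 5.33 and XIAP at 4.65 FPKM came next, and of these neighbors only TRAF3 and BIRC3 had ranges that overlapped. TRAF6 at 1.53, TRAF5 at 1.17 and TRAF1 at 0.119 FPKM were lowest. With ILL the order changed among the more abundant genes. BIRC2 at 19.8, TNFAIP3 at 18.6 and BIRC3 at 16.9 FPKM now followed TRAF4 at 72.9 FPKM, and their neighbors in this order overlapped. TRAF2 at 3.52 FPKM had moved below XIAP at 6.37 and TRAF3 at 6.27 FPKM, and TRAF1 at 1.22 FPKM overlapped TRAF5 at 1.33 FPKM.

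The summed FPKM of TRAF1 to TRAF6 was 65.2 ± 0.49 (SD, n = 3) in controls and 87.6 ± 1.9 (SD, n = 3) with ILL, and TRAF4 held most of it in every library. The share of TRAF4 was 75.5% ± 0.59 in controls and 83.2% ± 0.52 with ILL (SD, n = 3). TRAF2 went from 11.0% ± 0.20 to 4.02% ± 0.38 and TRAF3 from 9.11% ± 0.38 to 7.16% ± 0.30 (SD, n = 3), so the share of TRAF3 was lower although its own level was not. TRAF1 made up 0.183% ± 0.019 of the sum in controls and 1.39% ± 0.37 with ILL (SD, n = 3). The IAP sum was 27.5 ± 1.4 FPKM in controls and 43.0 ± 2.6 FPKM with ILL (SD, n = 3). In that sum BIRC3 went from 19.4% ± 1.9 to 39.3% ± 0.85, while BIRC2 went from 63.6% ± 1.4 to 45.9% ± 1.2 and XIAP from 17.0% ± 0.96 to 14.8% ± 0.71 (SD, n = 3). For all 9 shares the groups did not overlap, and each had a two-sided exact permutation p of 0.1, the smallest that 3 against 3 libraries allow, and an adjusted p of 0.1 over the 9 shares.

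The genes around these proteins were taken from 7 further lists of 114 genes, of which 94 were tested. Among them 49 were higher and 18 lower with ILL at an adjusted p-value under 0.05, or 52.1% and 19.1% of those tested, beside 36.2% and 36.9% of all genes tested. Their median log2 fold change was 0.30, and no test of the lists as sets was made. The lists are described by their place in the pathway, with CPM as mean ± SD over 3 libraries where levels are printed.

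Of the TNF and IL-1 family ligands, 6 of 11 tested were higher and 1 was lower. IL1A and IL1B, cytokines whose receptor signals through TRAF6, were 4.0-fold and 3.04-fold higher, at 605.8 ± 23 and 434.9 ± 8.3 CPM with ILL. TNFSF15, a ligand of the receptor DR3, was 4.49-fold higher and TNFSF10, which encodes TRAIL, 3.18-fold higher. TNFSF9, the ligand of 4-1BB, was the gene that fell, to 0.684 of control. Of the receptors that recruit TRAFs, 7 of 17 tested were higher and 3 lower. TNFRSF9, which encodes 4-1BB and binds TRAF1 and TRAF2, rose from 0.212 ± 0.11 to 4.0 ± 1.2 CPM (log2 fold change 4.22 ± 0.41 SE, edgeR adjusted p = 1.4e-09). TNFRSF14, EDAR and the IL-17 receptor chain gene IL17RC were 3.05-fold, 2.89-fold and 2.88-fold higher. IL1RAP, the accessory chain of the IL-1 receptor, fell to 0.569 of control, and TNFRSF12A, the receptor of TWEAK, fell to 0.821. The third receptor gene that fell was TNFRSF13C, named after its values were seen because its mean was under 1 CPM, with 57, 37 and 37 counts in controls and 6, 3 and 3 counts with ILL.

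Among adaptors and kinases, 16 of 27 tested genes were higher and 4 lower. IRAK2, a kinase family member that passes IL-1 receptor signals to TRAF6, rose from 5.99 ± 0.45 to 32.2 ± 0.40 CPM, or 5.38-fold. MYD88 and TRADD, the adaptors above TRAF6 and TRAF2, were 2.29-fold and 2.28-fold higher, and TANK, which binds TRAFs, was 1.92-fold higher. MAP3K14, which encodes NIK, was 19.1 ± 1.9 CPM in controls and 9.15 ± 0.88 CPM with ILL, a fall of the same order as that of TRAF2 (log2 fold change -1.06 ± 0.11 SE, edgeR adjusted p = 9.4e-09). IRAK1, CHUK and MALT1 also fell, to 0.692, 0.828 and 0.672 of control. Of the signalosome genes on which the study centers, BCL10 rose 1.54-fold, and CARD10 had a log2 fold change of 0.04 and did not pass (edgeR adjusted p = 0.52).

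In the list of ubiquitin ligases, deubiquitinases and A20 partners, 11 of 18 tested genes were higher and 4 lower. CYLD, a deubiquitinase that acts on TRAF2 and TRAF6, was 2.65-fold higher, and RBCK1, which encodes the HOIL-1 subunit of the linear ubiquitin ligase, was 2.91-fold higher. USP18, a protease that removes the ubiquitin-like protein ISG15, was 2.67-fold higher. The A20 partner genes TAX1BP1 and TNIP1 rose 1.69-fold and 1.54-fold, while TNIP2 had a log2 fold change of 0.11 (edgeR adjusted p = 0.23). UBE2N, the conjugating enzyme with which TRAF6 builds ubiquitin chains, fell to 0.574 of control, and OTULIN, which cuts linear chains, fell to 0.726.

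Of the 7 IAP antagonists and caspases, 3 were higher and 2 lower. XAF1, an antagonist of XIAP, rose from 30.4 ± 2.3 to 107.3 ± 2.2 CPM, or 3.53-fold. DIABLO, the mitochondrial IAP antagonist, was 38.6 ± 2.8 and 35.9 ± 1.2 CPM (log2 fold change -0.10, edgeR adjusted p = 0.21), and HTRA2 fell to 0.859 of control. CASP9, an initiator caspase that XIAP blocks, was 2.11-fold higher. Among 11 genes of NF-κB subunits and IκB proteins, 6 were higher and 1 lower. RELB and NFKB2, the subunits of the noncanonical pathway, were 4.95-fold and 2.40-fold higher, and NFKBIA and BCL3 were 2.22-fold and 2.14-fold higher. NFKBID fell to 0.686 of control. The other family members that could be tested all fell. BIRC5, which encodes the mitotic protein survivin, went from 201.8 ± 4.4 to 17.1 ± 0.81 CPM (log2 fold change -3.56 ± 0.06 SE, edgeR adjusted p = 1.4e-23), whereas TRAF7 and BIRC6 fell to 0.898 and 0.902 of control.

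**Figure D3:**
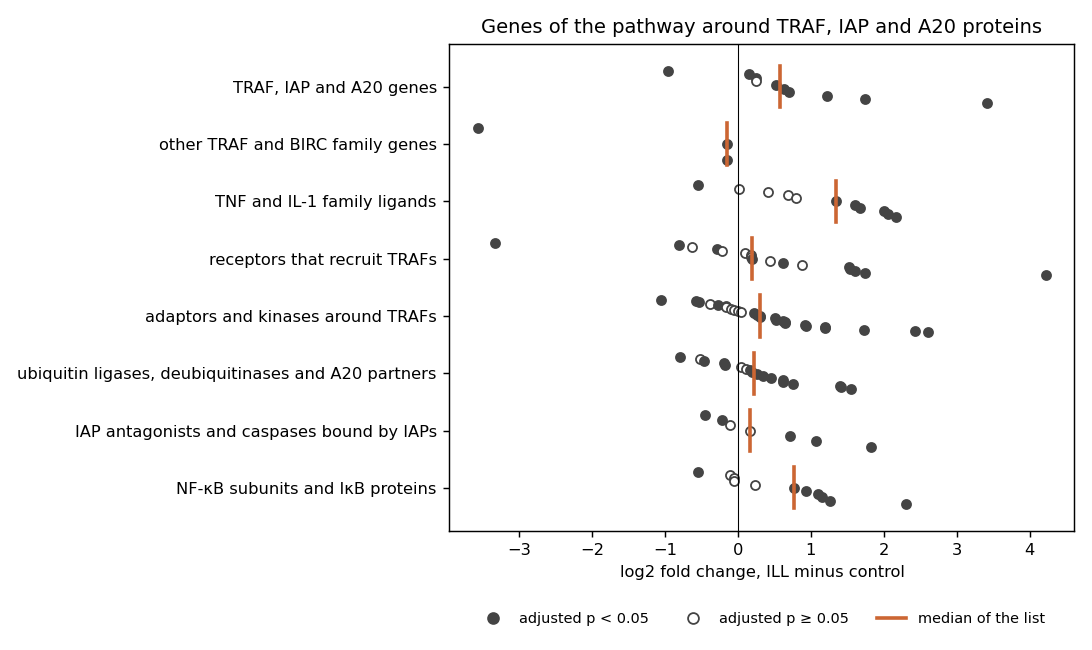
Log2 fold change (ILL minus control) of each tested gene, in 1 row for the 10 TRAF, IAP and A20 genes and 1 for each of the 7 other lists, with filled points at adjusted p under 0.05 and orange bars for medians. The 10 genes have a median of 0.58, TRAF2 stands alone below 0 in their row, and BIRC5 lies far to the left of the other family members.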

How the data were processed

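HCCC9810 cells given 20 μM ILL or DMSO vehicle for 24 h were profiled by RNA-seq, and the 3 libraries per group were assigned by their titles. The table deposited by the authors holds unnormalized read counts and, beside them, FPKM, both by gene symbol and library. The FPKM values deposited by the authors equal the count divided by a gene length and the library total (100% of 88055 nonzero values within 0.1%). The submitters' processing notes name GRCh38 and DESeq2, and the aligner, counting program and annotation are not given in the sources used here.

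Genes were filtered with filterByExpr, normalized by TMM and tested with edgeR's quasi-likelihood test (edgeR 4.0.16, R 4.3.3) with Benjamini-Hochberg adjustment over all genes tested. The biological coefficient of variation was 0.0717. Printed CPM values use the TMM-scaled library size. Standard errors were derived from the fold change and the F statistic. Shares and ratios were compared with exact permutation tests. The script was checked on simulated data in which 200 of 13066 genes were changed. This did not check the case in which most genes change.

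The 10 genes and the other lists were chosen with earlier results of these data known. All 10 genes are named. From the other lists, up to 4 genes per direction are named, those that changed most among called genes whose groups did not overlap and whose mean reached 1 CPM, together with selected binding partners and signalosome genes. The alternatives were scaling by library size only or by DESeq2's size factors, testing without the filter or on genes that reached 10 counts in all libraries, the Wald test of DESeq2 1.42.0, a replicate block, omission of single libraries, limma (limma 3.58.1) on log2 of FPKM plus 1 or 0.1, and shares of CPM. Some genes of the lists are not reported here by name. Gene positions come from GENCODE release 29 on GRCh38.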

Additional observations from a re-analysis of the deposited data

How the results depend on the processing

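Each of the 10 log2 fold changes kept its direction in all alternatives run for it. TRAF1, TRAF2, TRAF4, TRAF6, BIRC3, XIAP and TNFAIP3 also stayed past the adjusted p threshold in all of them, and TRAF5 stayed short of it. TRAF1 could not be tested where a mean FPKM of 1 was required. The median shift over all genes, in log2, was -0.0702 with library size only and -0.101 with limma on log2(FPKM + 0.1). TRAF3 no longer passed when libraries were scaled by size only (0.079), without a filter on low counts (0.14), or with limma on log2(FPKM + 1) with and without the filter (0.068 and 0.068) and on log2(FPKM + 0.1) (0.078), and was between 0.13 and 0.17 with 1 library left out. BIRC2 no longer passed with limma on log2(FPKM + 1) without a filter (0.17). Of the pseudocounts, 1 lowered the values of low genes most, to 0.42 for TRAF6 and 0.10 for TRAF5. The count of genes past 2-fold on the lower side was 1 in place of 0, from TRAF2, with library size only and with limma on log2(FPKM + 0.1), and 0 to 0 with 1 library left out. With shares of summed CPM in place of FPKM, which gives longer genes more weight, the differences in share were -4.88 points for TRAF2, -4.14 for TRAF3, -0.39 for TRAF5, 0.80 for TRAF6, -14.4 for BIRC2, 17.8 for BIRC3 and -3.44 for XIAP. With the replicate number as a block, 8 genes were higher and 1 lower, and no call of the 10 genes changed. No pairing of same-numbered libraries was seen, with correlations of their deviations from the group means of 0.0107, -0.0218 and -0.0179. These values cannot show whether such libraries shared a culture or a batch. Counts of 17 to 21 in control libraries limit the precision of TRAF1.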

Other observations

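Several ligands and receptors of the lists were too low to test, and the genes of this paragraph are named after their values were seen. CD40LG, TNFRSF8, TNFRSF13B and TNFRSF17 had 0 counts in all 6 libraries. TNF itself had 1, 4 and 0 counts in controls and 5, 10 and 1 counts with ILL, and TNFRSF1B, the TNF receptor that recruits TRAF2 directly, had 17, 4 and 5 counts in controls and 31, 6 and 4 counts with ILL. TNFRSF1A, which reaches TRAF2 through TRADD, was at 190.9 ± 11 CPM (SD, n = 3) in controls and 217.4 ± 15 CPM (SD, n = 3) with ILL, a log2 fold change of 0.19 (edgeR adjusted p = 0.0053).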
